A study of Rattus norvegicus with 10 samples.

Results

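Rab genes encode the small GTPases of vesicle traffic, and their transcripts were followed in rat lens explants over 24 hr of FGF2 treatment. The members were all genes whose symbol in the array annotation starts with Rab and a digit, which takes in the Rab11fip genes and the regulators of Rab3, and Rab20 was left out. They numbered 65 of the 14217 genes with a symbol and were covered by 107 probe sets. For the 29 members with more than 1 probe set, the one with the highest mean log2 intensity over all arrays was used. The explants, lens capsule with its layer of epithelial cells, came from 3-day-old rats and were cultured 6 to a dish. After overnight culture at 5 ng/mL FGF2 the 0 hr group was taken, and the others were exposed to 100 ng/mL for a further 2, 4, 12, or 24 hr. Each of the 5 groups had 2 arrays from separate cultures, so 10 arrays in all.

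The values are normalized intensities on a linear scale, with array medians of 98.0 to 100.3, and levels of different probe sets are not compared. Up- or down-regulation was called by limma at an adjusted p under 0.05, and log2 fold changes and calls are given against 0 hr unless stated. The 4 contrasts against 0 hr share the 0 hr arrays. No array had explants left at 5 ng/mL for these times, so time in culture and the FGF2 dose cannot be told apart. The numbers in the array names set the 2 and 4 hr arrays, the 0 hr arrays, and the 12 and 24 hr arrays apart, so array numbering and time cannot be told apart except for 4 against 2 hr and 24 against 12 hr. The log2 ratio of the 5' to the 3' GAPDH control was lower at 2 and 4 hr (−0.30 to −0.17) than elsewhere (−0.14 to 0.00071). That of beta-actin was −1.21 and −1.12 at 0 hr, −1.43 and −1.30 at 12 hr, −1.88 and −1.75 at 24 hr, and −2.13 to −1.37 at 2 and 4 hr, and the part of these shifts in the results was not tested. In whole explants, fewer cells of a type and less RNA per cell cannot be told apart.

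Of the genes listed as lens epithelial markers, Pax6, Cdh1, Cryaa, Cryab, Gja1, and Prox1 were among the brightest 1% of probe sets. Of the 7 listed 1, 3, and 4 were called lower at 4, 12, and 24 hr. The paper counts α-crystallin expression among the early features of fiber differentiation, so Cryaa and Cryab do not mark the epithelium alone. Of 7 measured fiber markers 1, 4, 4, and 1 were called lower and none higher at the 4 times, with Mip, Bfsp1, Bfsp2, and Gja3 lower at both 4 and 12 hr. From 12 to 24 hr 2 fiber markers were called higher and 1 lower, with a median log2 fold change of 0.70. The mean of 12 and 24 hr against that of 2 and 4 hr also gave 2 higher and 1 lower. The part of the fiber markers in the Rab results was not tested. Of the 5 measured pigment cell markers none was called, and their summed intensity was 172 to 193 over all arrays. None of 6 macrophage markers was called either, with sums of 211 to 268 at 0 hr and 265 to 377 at 2 hr. The 4 measured retinal neuron markers (216 to 264) and the 5 fibroblast markers, of which the lens epithelium also expresses Pdgfra, had no call against 0 hr, and between the phases Col1a1 was lower late (−0.38). Of 4 vascular endothelial markers Pecam1 and Emcn were called lower at 4 hr, Tek and Emcn lower at 12 and 24 hr, and Kdr higher at 12 hr, and their sum went from 1291 to 1660 at 0 hr to 771 to 859 at 24 hr. Its part in the Rab results was not tested.

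Rab proteins cycle between a GTP-bound form on membranes and a GDP-bound form in the cytosol. Exchange factors switch them on, GTPase-activating proteins switch them off, and in the active form they recruit effectors such as motors, tethers, and coat adaptors. Each Rab marks certain membranes, and lens cells depend on this traffic when they elongate and insert large amounts of new membrane as fibers.

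Because FGF2 signaling induces Fos and Jun proteins, which bind TGANTCA as the AP-1 dimer, the promoter windows of the Rab genes were searched for these letters. Windows of 300 bases, from 250 before to 50 after the gene start, came from RefSeq (GRCr8) for 51 of the 65 members. On either strand TGANTCA stood in a window of 4 of the 51 genes (7.84%), beside 7.33% of all windows. The first share counts a gene once if any of its windows matched and the second counts windows, so they are not the same measure. The stretches of 30 bases around it are shown because Rab4b and Rab27b are among the genes with the largest changes below, with Rab34, called at 24 hr, and Rab9a, called at no time. They read 5' to 3' on the strand of the gene, with the matched letters in capitals. A match is a description of the sequence only.
Rab27b, chr18:65938695-65938724, minus strand: tattgcagggtTGAGTCAccagcccgaggt
Rab4b, chr1:91600514-91600543, minus strand: cacgcccctttTGACTCAgcccctctcatg
Rab34, chr10:63581396-63581425, plus strand: ggcagactccaTGAGTCAtgtgtcaggcct
Rab9a, chrX:31609994-31610023, plus strand: ccctgccccacTGACTCAggccccgtcccg

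At 2 hr 5 Rab genes were up-regulated (7.69%, beside 8.61% of all probe sets) and 8 down-regulated (12.3% beside 8.88%), so 13 of 65 (20.0%) were called, beside 17.5% of all. Rab7b of the late endosome rose most and Rab6b of the Golgi fell most. After 4 hr there were 6 rises (9.23% beside 11.9%) and 11 falls (16.9% beside 11.9%), in all 17 (26.2%) beside 23.8%. The 12 hr arrays gave 5 rises (7.69% beside 8.94%) and 4 falls (6.15% beside 10%), in all 9 (13.8%) beside 19%. By 24 hr 6 members had risen (9.23% beside 9.29%) and 5 fallen (7.69% beside 10.9%), in all 11 (16.9%) beside 20.2%. The share of Rab genes called was thus near that of all probe sets at each time. The median log2 fold change of the members was −0.10, −0.10, −0.05, and 0.0020 at the 4 times, and over all probe sets it was between −0.02 and 0.03. With 2 arrays per group the counts moved with single arrays, and of the 50 calls against 0 hr only 17 held without any 1 array. The 2 hr count was 3 or 4 without a 0 hr array, 8 and 6 without 2 hr replicates 1 and 2, and 7 without either 12 hr array, and the 4 hr count was 8 without 0 hr replicate 2. The 12 hr count was 4 or 5 without a 0 or 12 hr array, and the 24 hr count was 3 or 4 without a 0 hr array and 5 and 7 without 24 hr replicates 1 and 2. The methods' analysis of variance was run on the arrays of the compared times at an unadjusted p under 0.05, without the methods' template matching. By gene it was read only for 16 members chosen by the size of their called changes. Among these it did not call Rab11fip1 or Rab11fip2 at 2 and 4 hr, Rab22a and Rab27b at 2 hr, Rab3a and Rab6b at 4 hr, or Rab31 at 24 hr.

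**Figure D1:**
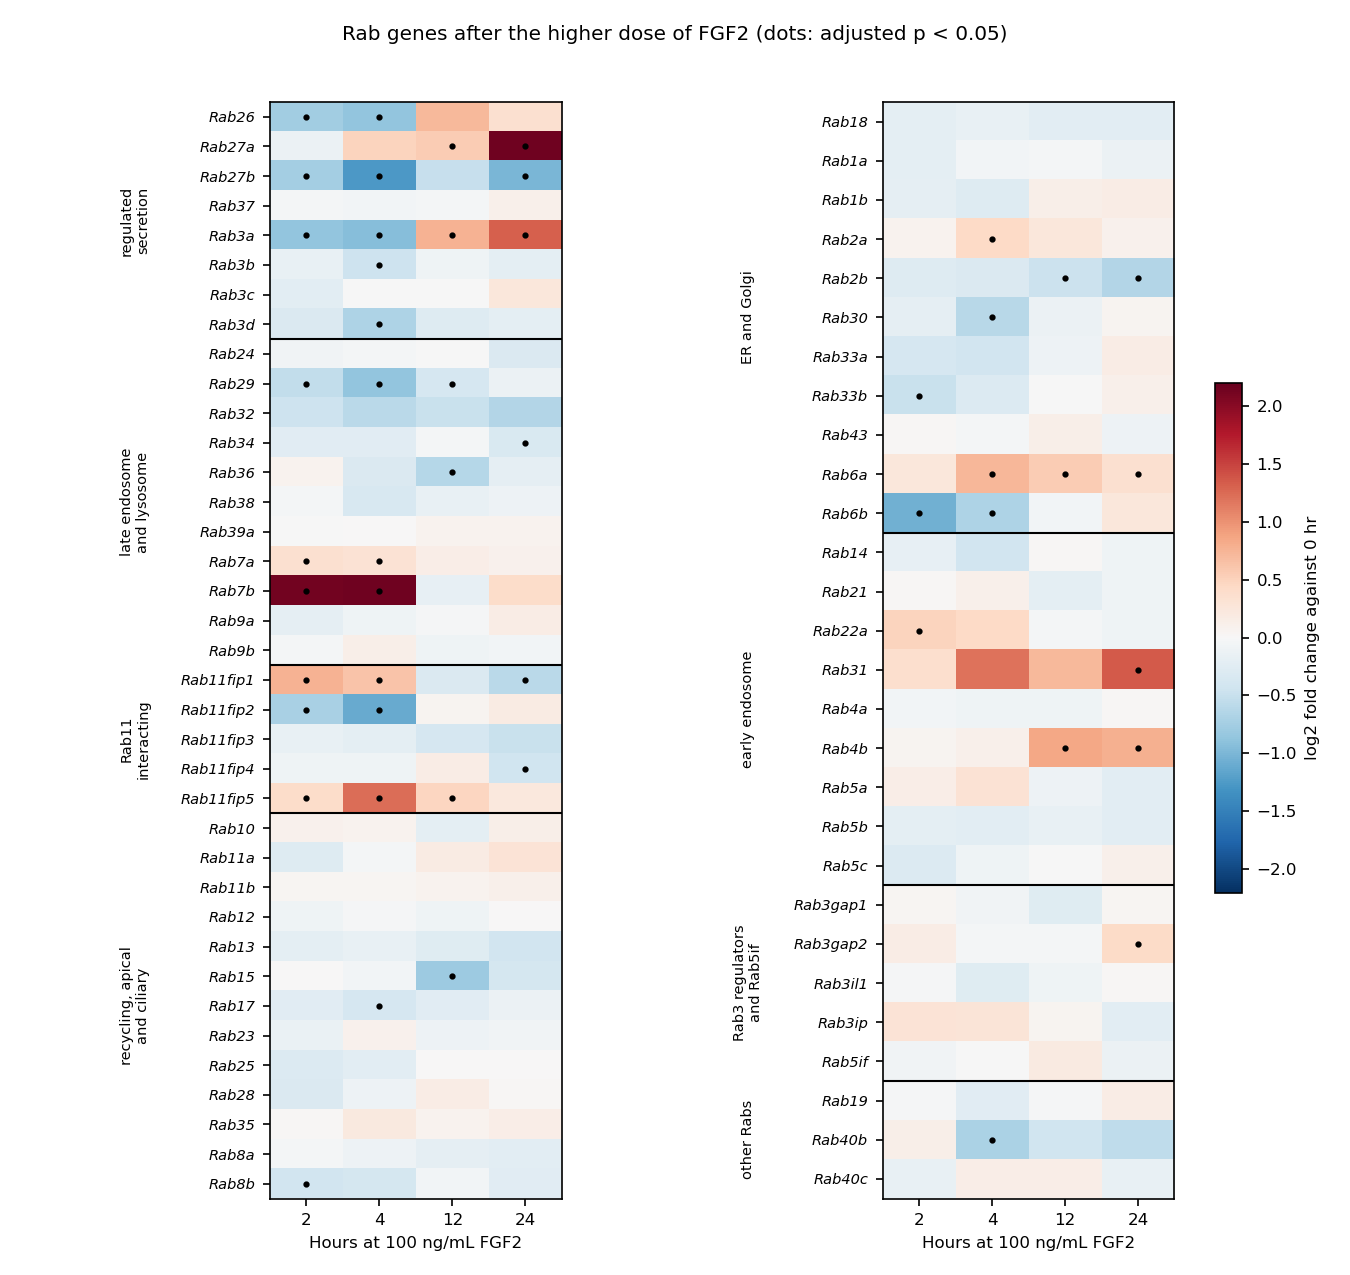
Log2 fold change against 0 hr (colour) of the 65 Rab genes at 2, 4, 12, and 24 hr of 100 ng/mL FGF2, grouped by role, each from 2 arrays per group. Dots mark an adjusted p under 0.05. Rab7b (2.13 and 2.14 at 2 and 4 hr) and Rab27a (2.14 at 24 hr) have the highest values, and most squares of the recycling group are pale.

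At any of the 4 times 29 members (44.6%) were called, beside 40.8% of all probe sets. Only at 2 or 4 hr were 14 called (21.5% beside 14.1%), only at 12 or 24 hr 9 (13.8% beside 12.7%), and in both phases 6 (9.23% beside 14%). Of the 14, 4 rose (Rab2a, Rab7a, Rab7b, and Rab22a) and 10 fell (Rab3b, Rab3d, Rab6b, Rab8b, Rab17, Rab26, Rab30, Rab33b, Rab40b, and Rab11fip2). These 10 falls are 15.4% of the members, beside 6.67% of all probe sets, and the 4 rises are 6.15% beside 7.46%. Late calls alone were 4 rises (Rab4b, Rab27a, Rab31, and Rab3gap2), 6.15% beside 6.3%, and 5 falls (Rab2b, Rab15, Rab34, Rab36, and Rab11fip4), 7.69% beside 6.43%. Both Rab3a and Rab11fip1 were called up at some times and down at others, which is 3.08% of the members beside 2.78% of all probe sets. Rab3a was the only member called at all 4 times. The other 36 members had no call against 0 hr at the probe sets used. Their log2 fold changes ran from −0.65 (Rab32 at 24 hr, standard error 0.22) to 0.32 (Rab5a at 4 hr, standard error 0.11). Of these members 35 stayed within 0.5 of 0 at every time.

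**Figure D2:**
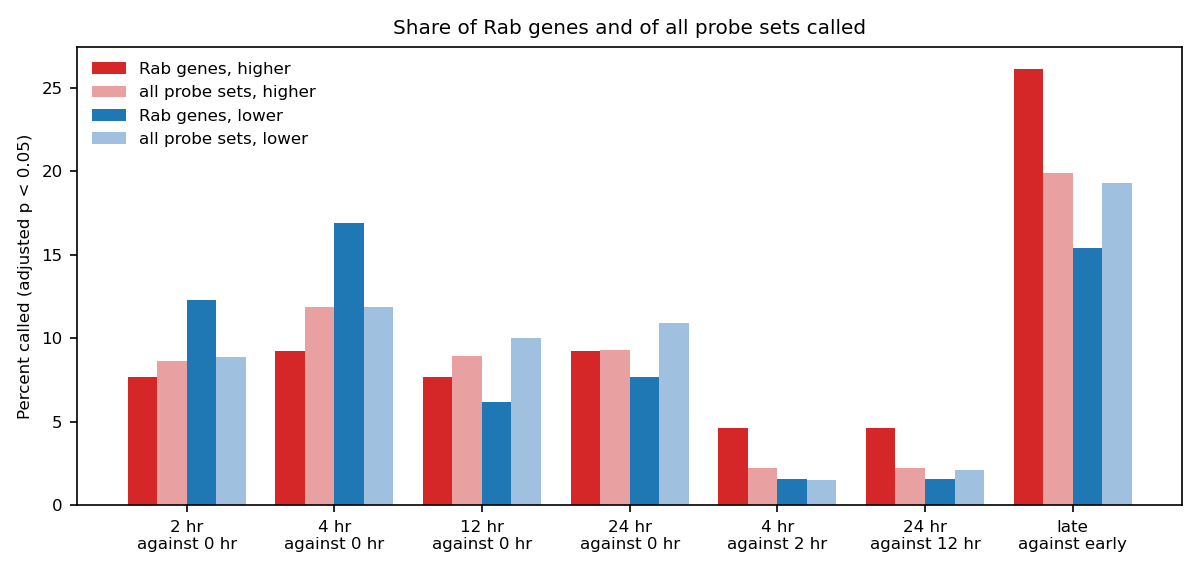
Percent of the 65 Rab genes (dark bars) and of all 31042 probe sets (light bars) called higher (red) or lower (blue) at an adjusted p under 0.05 in 7 comparisons. The share of Rab genes lower at 4 hr, 16.9%, stands beside 11.9% of all probe sets, and the bars for the other contrasts with 0 hr lie closer together.

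Regulated secretion is the role of 8 members, which dock and prime granules and synaptic vesicles for release. No member rose early, when 3 were down-regulated after 2 hr (beside 8.88% of all probe sets) and 5 after 4 hr (beside 11.9%). Late there were 2 rises at each time (beside 8.94 and 9.29%) and 1 fall, by 24 hr (beside 10.9%). Their median log2 fold change at 4 hr was −0.57. Rab3a, the main Rab of synaptic vesicles, had intensities of 108 and 132 at 0 hr, 70.9 and 61.1 at 2 hr, 73.5 and 53.2 at 4 hr, 190.4 and 218 at 12 hr, and 272 and 329.9 at 24 hr. Both early groups lay below and both late groups above the 0 hr arrays, with no overlap. The log2 fold changes of Rab3a were −0.86, −0.94, 0.77, and 1.32 (standard error 0.18, adjusted p = 0.013, 0.0060, 0.018, and 0.0013), and its late minus early difference was 1.95 (adjusted p = 1.4e-05). Its dimmer probe set showed the late rises (0.50 and 0.73) and was not called at 2 and 4 hr (−0.20 and −0.34), and the mean of both at 2 hr was −0.53. The calls at 24 hr and between the phases held without any 1 array, while that at 2 hr was lost without 0 hr replicate 2 or 2 hr replicate 2, that at 4 hr without 0 hr replicate 2, and that at 12 hr without 0 hr replicate 1 or either 12 hr array (adjusted p up to 0.098, 0.054, and 0.13).

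The Rab27 genes, which attach secretory granules and melanosomes to their effectors, took separate courses. Rab27a had intensities of 76.1 and 80.1 at 0 hr, 85.7 and 59.2 at 2 hr, 112 and 109 at 4 hr, 124 and 107 at 12 hr, and 377 and 315 at 24 hr. The 24 hr arrays were the highest, and only the 2 hr arrays overlapped those of 0 hr. Rab27a rose by 2.14 at 24 hr (standard error 0.17, adjusted p = 0.00010) and by 1.58 from 12 to 24 hr (adjusted p = 0.0029), within neighbouring array numbers. A dimmer probe set also rose at 24 hr (1.48), one among the dimmest on the array did not (0.19), and the mean of all was 1.27. The smaller rise at 12 hr, 0.56 (adjusted p = 0.049), was lost on leaving out any 1 array of 0, 4, 12, or 24 hr, with adjusted p up to 0.26, and with the mean of all probe sets (0.33). The 5 measured pigment cell markers had no call at any time, at a summed intensity of 172 to 193 over all arrays. Their part in the Rab27a values was not tested.

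Rab27b had intensities of 174 and 162 at 0 hr, 128 and 77.8 at 2 hr, 78.3 and 62.4 at 4 hr, 113 and 123 at 12 hr, and 78.6 and 89.0 at 24 hr. All later arrays lay below both 0 hr arrays. Rab27b fell by 0.75, 1.26, and 1.00 at 2, 4, and 24 hr (standard error 0.21, adjusted p = 0.042, 0.0032, and 0.011), and its value at 12 hr was −0.51 (adjusted p = 0.14). Its second probe set was called lower at all 4 times, at −0.40 to −0.37. The fall at 4 hr was called on leaving out any single array, at −0.82 with the mean of both probe sets, but the one at 2 hr was not without either array of 0, 12, or 24 hr or without 2 hr replicate 2 (adjusted p up to 0.19, with values from −1.11 without 2 hr replicate 1 to −0.39 without 2 hr replicate 2), and the one at 24 hr was not without either 0 hr array or 24 hr replicate 1 (up to 0.074).

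Rab26, a Rab of granule maturation, had intensities of 384 and 412 at 0 hr, 219 and 248 at 2 hr, 205 and 233 at 4 hr, 585 and 733 at 12 hr, and 655 and 390.0 at 24 hr. The 2 and 4 hr arrays lay below the 0 hr arrays, the 12 hr arrays above, and the 24 hr arrays overlapped them. Rab26 fell by 0.77 and 0.86 at 2 and 4 hr (standard error 0.22, adjusted p = 0.043 and 0.022), its values of 0.72 and 0.35 at 12 and 24 hr were not called, and its late minus early difference was 1.35 (adjusted p = 0.00021). The fall at 2 hr was lost without any 1 array of 0, 2, or 12 hr (adjusted p up to 0.19), and that at 4 hr without either 0 hr array or 4 hr replicate 1 (up to 0.11). Of the Rab3 paralogs Rab3b fell by 0.46 and Rab3d by 0.68 at 4 hr alone, the former not without 0 hr replicate 2 (adjusted p = 0.11), and Rab3c and Rab37 had no call against 0 hr. Madd, the exchange factor of Rab3 and Rab27, is described with the regulators below.

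**Figure D3:**
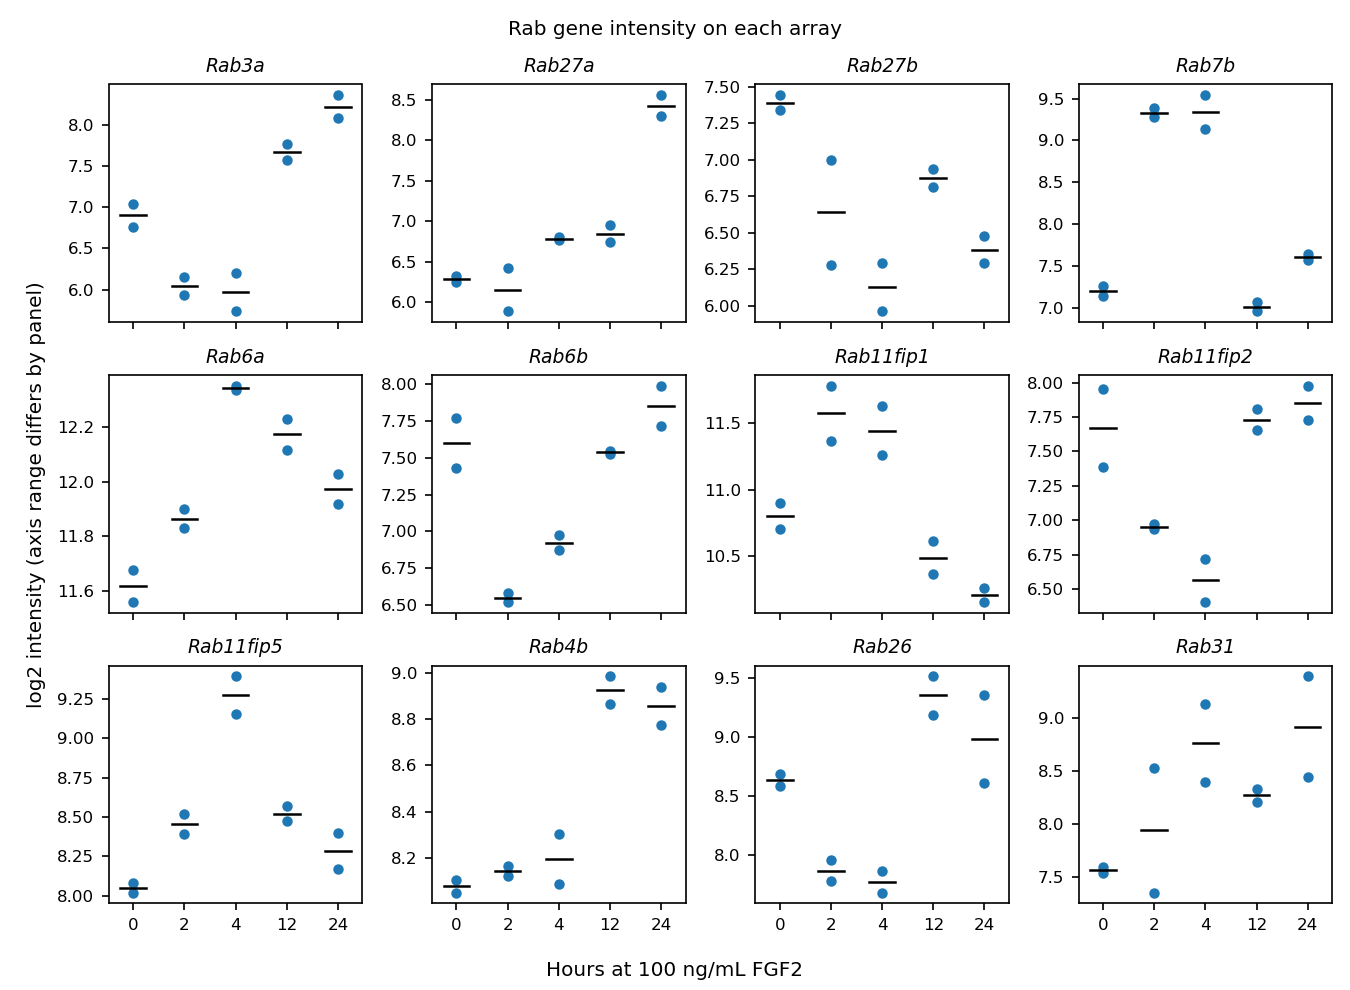
Log2 intensity (vertical axis, range differs by panel) of 12 Rab genes on each of the 10 arrays (points) with the mean of the 2 arrays (bar), at 0 to 24 hr of 100 ng/mL FGF2 with the times equally spaced. The arrays of Rab7b at 2 and 4 hr and those of Rab27a at 24 hr lie above all others of their gene, while those of Rab31 spread widely at 2, 4, and 24 hr.

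The late endosome, lysosome, and lysosome-related organelles are the site of 11 members. Both early times had 2 rises (beside 8.61 and 11.9% of all probe sets) and 1 fall (beside 8.88 and 11.9%) among them, and the late times had falls alone, 2 after 12 hr (beside 10%) and 1 after 24 hr (beside 10.9%). Rab7b, which directs traffic from late endosomes to the Golgi, had intensities of 154 and 141 at 0 hr, 621 and 668 at 2 hr, 744 and 564 at 4 hr, 135 and 124 at 12 hr, and 200.4 and 191 at 24 hr. The 2 and 4 hr arrays were far above the others, and the 12 hr arrays lay just below those of 0 hr. Rab7b rose by 2.13 and 2.14 at 2 and 4 hr (standard error 0.13, adjusted p = 6.4e-05 and 3.2e-05), the largest early change among the members, and both calls held on leaving out any single array. It was not called at 12 or 24 hr (−0.18 and 0.41), and the late phase was lower than the early phase by −2.02 on the log2 scale (adjusted p = 3.8e-06). Between 12 and 24 hr it rose by 0.59 (adjusted p = 0.043), a call that leaving out any 1 array of 0, 12, or 24 hr ended (adjusted p up to 0.27), as did the mean of its probe sets (0.38). The dimmer probe set of Rab7b rose at 2 and 4 hr as well (1.42 and 1.67).

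Rab7a, the Rab of late endosome fusion with lysosomes, rose by less, at 0.36 and 0.31 at 2 and 4 hr, with 0.33 and 0.31 at its second probe set, and neither call held without a 0 hr array, without either 2 hr array for the former, or without 4 hr replicate 2 for the latter (adjusted p up to 0.15 and 0.18). Rab29, which acts at the Golgi and on stressed lysosomes, fell by 0.54, 0.87, and 0.37 at 2, 4, and 12 hr (standard error 0.10). Its arrays read 938 and 1001 at 0 hr, 660.5 and 672 at 2 hr, 512 and 547 at 4 hr, 737 and 765 at 12 hr, and 956 and 823 at 24 hr. They were lowest at 4 hr and overlapped those of 0 hr again at 24 hr, and the call at 4 hr held without any 1 array, that at 2 hr not without 0 hr replicate 2 (adjusted p = 0.063), and that at 12 hr not without any 1 array of 0 or 12 hr (up to 0.19). Rab36, which positions lysosomes, read 80.8 and 81.7 at 0 hr, 87.1 and 84.5 at 2 hr, 69.5 and 61.7 at 4 hr, 50.7 and 54.3 at 12 hr, and 78.1 and 64.4 at 24 hr. Its fall of 0.63 at 12 hr (standard error 0.11, adjusted p = 0.0050) was the only call against 0 hr, with the 12 hr arrays below all others. Its close relative Rab34, which is needed for cilia in many cells, fell by 0.34 at 24 hr, a call lost without any 1 array of 0 or 24 hr (adjusted p up to 0.13). The dimmer probe set of Rab34 was called lower at 4 hr instead (−0.79) and was not called at 24 hr (−0.07). The melanosome Rabs Rab32 and Rab38, the retrograde Rabs Rab9a and Rab9b, Rab24, and Rab39a had no call against 0 hr.

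The 5 Rab11 family interacting proteins link Rab11 on recycling endosomes to motors and tethers. After 2 hr 2 of them were called higher (beside 8.61% of all probe sets) and 1 lower (beside 8.88%). Rab11fip1 had intensities of 1673 and 1907 at 0 hr, 2636 and 3502 at 2 hr, 2444 and 3150.4 at 4 hr, 1323 and 1566 at 12 hr, and 1144 and 1232 at 24 hr. The early arrays lay above and the late arrays below those of 0 hr. Rab11fip1 rose by 0.77 and 0.64 at 2 and 4 hr (standard error 0.17, adjusted p = 0.017 and 0.027) and was lower by 24 hr at −0.59 (adjusted p = 0.041), with −0.31 at 12 hr (adjusted p = 0.27). Its late minus early difference was −1.15 (adjusted p = 0.00013). The early calls were lost without either 0 hr array and without the second array of the same time (adjusted p up to 0.16), and the call at 24 hr without any 1 array of 0, 12, or 24 hr (up to 0.22). Its dimmer probe set rose at 2 hr (1.16) and was not called at the other times (0.65, −0.37, and −0.51).

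Rab11fip2, which binds myosin V, went the other way early. Its intensities were 248 and 167 at 0 hr, 125 and 122 at 2 hr, 84.7 and 105 at 4 hr, 202 and 224 at 12 hr, and 212 and 252 at 24 hr. The early arrays lay below both 0 hr arrays, which themselves stood well apart, and the late arrays overlapped them. It fell by 0.72 and 1.11 at 2 and 4 hr (standard error 0.19, adjusted p = 0.031 and 0.0032). The call at 4 hr held without any 1 array but was lost under the methods' analysis of variance. That at 2 hr was lost without 0 hr replicate 1, where the value was −0.43, or either array of 2 or 12 hr (adjusted p up to 0.19).

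Rab11fip5, which acts in apical recycling, had intensities of 259.5 and 271 at 0 hr, 336 and 366 at 2 hr, 571 and 672 at 4 hr, 379.9 and 355 at 12 hr, and 338 and 288 at 24 hr. All later arrays lay above those of 0 hr, with the peak at 4 hr. Rab11fip5 rose by 0.40, 1.22, and 0.47 at 2, 4, and 12 hr (standard error 0.12, adjusted p = 0.046, 0.00021, and 0.023) and by 0.82 from 2 to 4 hr (adjusted p = 0.0079), within neighbouring array numbers. The calls at 4 hr held without any 1 array, the step from 2 hr was lost in a fit of those times alone, while those at 2 hr were lost without any 1 array of 0, 2, or 12 hr and those at 12 hr without any 1 array of 0 or 12 hr (adjusted p up to 0.21 and 0.14). Rab11fip4, which with Rab11fip3 acts in cytokinesis, fell by 0.44 at 24 hr and by 0.61 from 12 to 24 hr (adjusted p = 0.043 and 0.035), the former lost without any 1 array of 0 or 12 hr or 24 hr replicate 1 (up to 0.26). Rab11fip3 had no call, at −0.16 to −0.50.

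**Figure D4:**
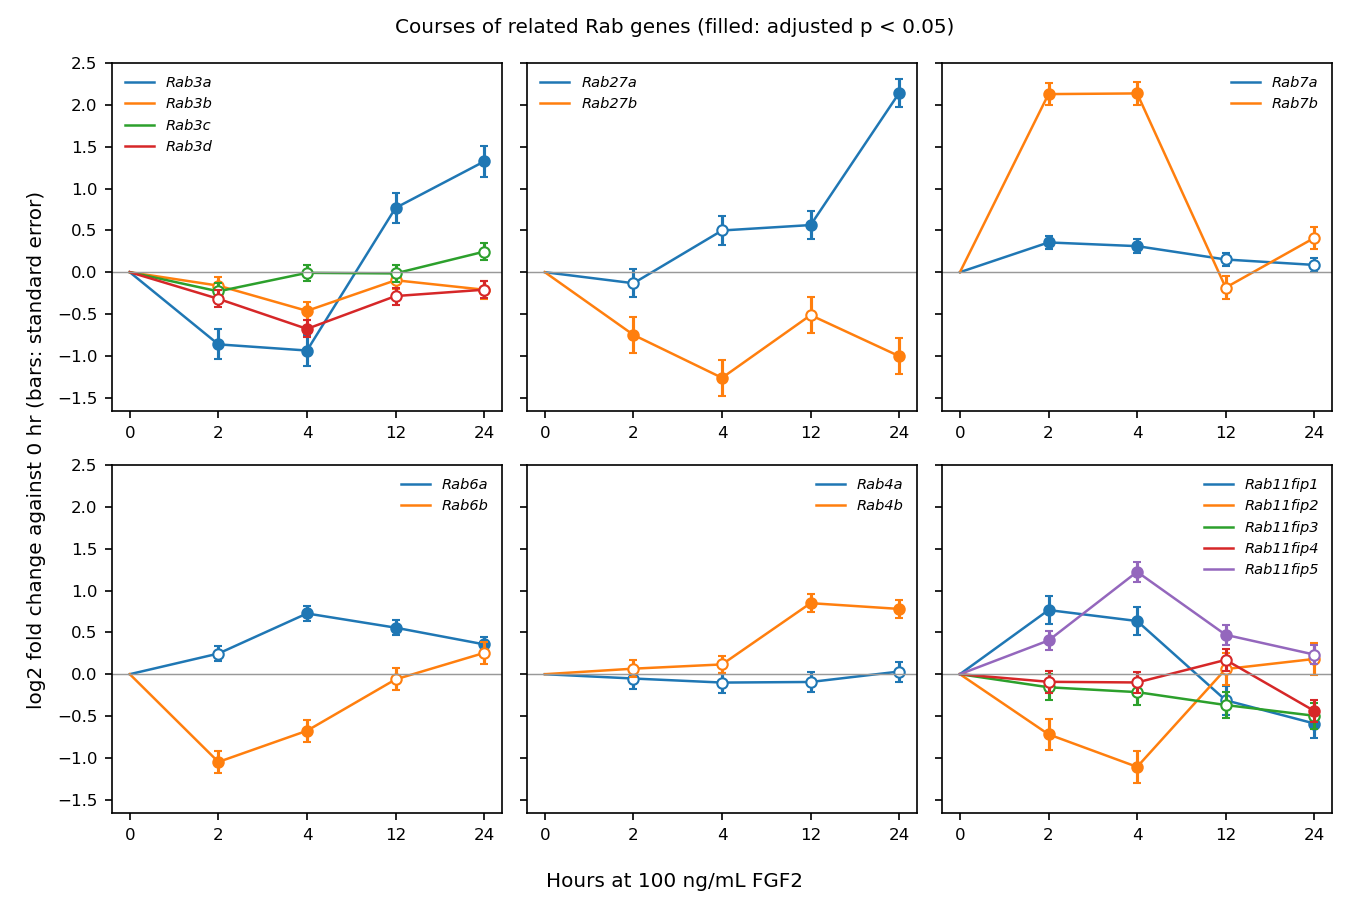
Log2 fold change against 0 hr with its standard error (bars) of related Rab genes at 2 to 24 hr of 100 ng/mL FGF2, with the times equally spaced and filled points for an adjusted p under 0.05. Rab27a stands at 2.14 at 24 hr and Rab27b at −1.26 at 4 hr, and Rab11fip5 and Rab11fip2 at 1.22 and −1.11 at 4 hr.

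Traffic from the ER to the Golgi and within the Golgi is the role of 11 members, with 2 falls after 2 hr (beside 8.88% of all probe sets), 2 rises and 2 falls after 4 hr (each beside 11.9%), and 1 of each at both late times (rises beside 8.94 and 9.29%, falls beside 10 and 10.9%). Rab6a, the Rab of retrograde Golgi transport, had intensities of 3271 and 3017 at 0 hr, 3818 and 3639 at 2 hr, 5225 and 5166 at 4 hr, 4444 and 4799.7 at 12 hr, and 4182 and 3870.1 at 24 hr. Every later array lay above both 0 hr arrays, and the 4 hr arrays were the highest. Rab6a rose by 0.73, 0.56, and 0.36 at 4, 12, and 24 hr (standard error 0.09, adjusted p = 0.00074, 0.0033, and 0.024) and by 0.48 from 2 to 4 hr (adjusted p = 0.025). Leaving out any 1 array of 0 or 24 hr ended the call at 24 hr (adjusted p up to 0.17), and leaving out a 0 hr array, 2 hr replicate 2, or 4 hr replicate 1 ended that between 2 and 4 hr (up to 0.092). Its dimmer probe set had no call (−0.15, 0.38, 0.11, and −0.38), and with the mean of both the calls at 12 hr (0.33) and 24 hr (−0.011) and between 2 and 4 hr were lost.

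Rab6b, the paralog best known from neurons, had intensities of 172 and 218 at 0 hr, 91.7 and 95.7 at 2 hr, 126 and 117 at 4 hr, 184 and 187 at 12 hr, and 254 and 211 at 24 hr. The 2 hr arrays were the lowest, and the late arrays overlapped those of 0 hr. Rab6b fell by 1.05 and 0.68 at 2 and 4 hr (standard error 0.13, adjusted p = 0.0014 and 0.0065), the largest fall of a member at 2 hr, and its late minus early difference was 0.96 (adjusted p = 9.2e-05). The call at 4 hr was lost without 0 hr replicate 2 (adjusted p = 0.053) and with the mean of its probe sets (−0.39), and the dimmer probe set was not called at either time (−0.40 and −0.10).

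Rab2b, which tethers membranes between ER and Golgi, had intensities of 1704 and 1626 at 0 hr, 1228 and 1513 at 2 hr, 1244 and 1442 at 4 hr, 1153 and 1256 at 12 hr, and 1039.9 and 1089.8 at 24 hr. Each later array lay below both 0 hr arrays, and the 24 hr arrays were the lowest. Rab2b fell by 0.47 and 0.64 at 12 and 24 hr (standard error 0.12, adjusted p = 0.028 and 0.0066), and its second probe set by 0.48 and 0.62. The call at 12 hr was lost without any 1 array of 0 or 12 hr (adjusted p up to 0.17) and that at 24 hr without 0 hr replicate 1 (0.056). Its paralog Rab2a rose at 4 hr alone, by 0.44 (adjusted p = 0.0051), which held without any 1 array. The dimmer probe set of Rab2a was not called at 4 hr (0.16) or from 2 to 4 hr (0.34). Rab33b, a Golgi Rab with a part in autophagy, fell by 0.50 at 2 hr, and the Golgi Rab Rab30 fell by 0.62 at 4 hr. Without a 0 hr array or 2 hr replicate 1 the call of Rab33b was lost (adjusted p up to 0.10), and without 0 hr replicate 2 that of Rab30 (0.074). At the probe sets used no call against 0 hr fell on Rab1a, Rab1b, Rab18, Rab33a, or Rab43. The dimmest probe set of Rab1b was called higher at 12 and 24 hr (0.330 and 0.327, adjusted p = 0.0497 and 0.0492 in limma).

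Early endosomes are the site of 9 members. At the probe sets used 1, 0, 1, and 2 rose at the 4 times (beside 8.61, 11.9, 8.94, and 9.29% of all probe sets). None was called lower against 0 hr (beside 8.88, 11.9, 10, and 10.9%). Dimmer probe sets were called lower for Rab14 at 2 hr (−0.61) and, at another one, 24 hr (−0.65), and for Rab5a at 24 hr (−1.02). Rab4b, a Rab of rapid recycling whose promoter stretch is shown above, had intensities of 265 and 275 at 0 hr, 287 and 278 at 2 hr, 315 and 272 at 4 hr, 467 and 507 at 12 hr, and 490.3 and 438 at 24 hr. The late arrays lay above all early and 0 hr arrays. Rab4b rose by 0.85 and 0.78 at 12 and 24 hr (standard error 0.10, adjusted p = 0.00088 and 0.0013), both held without any 1 array, and its early values were 0.07 and 0.12. Rab22a, which acts on early and recycling endosomes, had intensities of 437 and 536 at 0 hr, 686 and 679 at 2 hr, 579 and 739 at 4 hr, 459.5 and 485 at 12 hr, and 430.5 and 478 at 24 hr. Its early arrays lay above those of 0 hr and its late arrays overlapped them. Rab22a rose by 0.50 at 2 hr (standard error 0.14, adjusted p = 0.041), which leaving out any 1 array other than those of 4 hr ended (adjusted p up to 0.26), and it stood at 0.43 at 4 hr (adjusted p = 0.053).

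Rab31, which carries cargo between the Golgi and endosomes, had intensities of 185 and 193 at 0 hr, 369 and 163 at 2 hr, 558 and 335 at 4 hr, 321 and 296 at 12 hr, and 347 and 670.4 at 24 hr. Its replicate arrays differed widely at 2, 4, and 24 hr. The rise of 1.35 at 24 hr (standard error 0.41, adjusted p = 0.049) rested on 24 hr replicate 2, without which it was 0.88 (adjusted p = 0.30), and it was also lost without any 1 array of 0 or 12 hr. Rab31 stood at 1.20 at 4 hr (adjusted p = 0.068), and its dimmer probe set rose by 0.43 at 24 hr, for a mean of 0.89. The classic early endosome Rabs Rab5a, Rab5b, and Rab5c, and Rab4a, Rab14, and Rab21 were not called against 0 hr at the probe sets used.

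Recycling, apical, and ciliary traffic is the role of 13 members. At the probe sets used 1 each was called lower at 2, 4, and 12 hr (beside 8.88, 11.9, and 10% of all probe sets). None was called at 24 hr at these probe sets. Rab15, a regulator of endocytic recycling, had intensities of 138 and 152 at 0 hr, 130.0 and 163 at 2 hr, 126 and 152 at 4 hr, 87.2 and 79.9 at 12 hr, and 108 and 113 at 24 hr. The 12 hr arrays were the lowest and the early arrays overlapped those of 0 hr. Rab15 fell by 0.80 at 12 hr (standard error 0.14, adjusted p = 0.0041), which held without any 1 array, and stood at −0.39 at 24 hr (adjusted p = 0.077), while its other probe sets were not called at 12 hr (0.09 and −0.21) and the mean of all was −0.30. The dimmest probe set of Rab15 was called lower at 4 hr instead (−0.34). Rab8b, which delivers membrane to the cell surface and the cilium, fell by 0.42 at 2 hr, and Rab17, an epithelial Rab of apical sorting, by 0.37 at 4 hr. The call of Rab8b held only without a 4 hr array and that of Rab17 only without an array of 2 or 24 hr, among single arrays left out (adjusted p up to 0.26 and 0.21). At the probe sets used Rab8a, Rab10, Rab11a, Rab11b, Rab12, Rab13, Rab23, Rab25, Rab28, and Rab35 had no call against 0 hr. Their log2 fold changes there, like that of Rab15 outside 12 hr, stayed between −0.43 and 0.30. Dimmer probe sets were called higher for Rab11b at 12 and 24 hr (0.87 and 0.66) and for Rab11a at 24 hr (0.60).

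Of Rab3gap1, Rab3gap2, Rab3il1, Rab3ip, and Rab5if, which regulate or bind Rab proteins, only Rab3gap2 was called against 0 hr at the probe sets used. Dimmer probe sets were called lower for Rab3gap1 at 4 hr (−0.47) and higher for Rab3ip at 2 and 4 hr (0.44 and 0.47). Rab3gap2 is the regulatory subunit of the Rab3 GTPase-activating protein. It rose by 0.43 at 24 hr and by 0.48 from 12 to 24 hr (adjusted p = 0.022 and 0.043), and its arrays at 24 hr, 603 and 568, lay above those at 0 hr, 427 and 444. Rab40b, which joins a GTPase to a SOCS box, fell by 0.70 at 4 hr and by 0.82 from 2 to 4 hr (adjusted p = 0.019 and 0.038), with 82.0 and 89.1 at 0 hr against 54.7 and 50.8 at 4 hr. Its dimmer probe set had no call (0.09 at 4 hr). The call of Rab3gap2 at 24 hr was lost without any 1 array of 0 or 24 hr and that of Rab40b at 4 hr without a 0 hr array or 4 hr replicate 2 (adjusted p up to 0.13 and 0.11).

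The steps within a phase compare arrays of neighbouring numbers. From 2 to 4 hr Rab2a, Rab6a, and Rab11fip5 rose (4.62% beside 2.24% of all probe sets) and Rab40b fell (1.54% beside 1.5%), so 4 members (6.15%) beside 3.73%. From 12 to 24 hr Rab7b, Rab27a, and Rab3gap2 rose (4.62% beside 2.22%) and Rab11fip4 fell (1.54% beside 2.12%), again 4 members (6.15%) beside 4.34%. Between the phases (the mean of 12 and 24 hr against that of 2 and 4 hr) 17 Rab genes were higher late (26.2% beside 19.9%) and 10 lower (15.4% beside 19.3%), 27 in all (41.5%) beside 39.2%. Of the 36 members with no call against 0 hr, 9 were called here, 7 higher late (Rab33a 0.42, Rab11a 0.40, Rab1b 0.39, Rab28 0.32, Rab25 0.28, Rab3c 0.23, and Rab19 0.20) and 2 lower (Rab5a −0.40 and Rab3ip −0.37). From 2 to 4 hr 1 call was left without either 0 hr array or 4 hr replicate 1, and 2 without 2 hr replicate 2 or any 1 late array. From 12 to 24 hr 2 were left without either 0 hr array and 1 without any 1 array of 12 or 24 hr.

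The wider machinery was described from 5 lists of genes. Of the 56 measured regulators and effectors of the Rab cycle (68 listed), 6 rises and 7 falls were called after 2 hr, 10 and 10 after 4 hr, 5 and 5 after 12 hr, and 4 and 7 after 24 hr, with medians between −0.04 and 0.02. Over all probe sets the shares called higher and lower at these times, against which this and the other lists are to be read, were 8.61 and 8.88%, 11.9 and 11.9%, 8.94 and 10%, and 9.29 and 10.9%. Of 47 SNARE proteins and partners (52 listed), which drive membrane fusion, 4 rose and 6 fell, 5 and 7, 2 and 7, and 3 and 7 at the same times. Of 35 subunits of the COPI, COPII, and clathrin coats (39 listed) the rises and falls were 1 and 1, 3 and 2, 7 and 3, and 1 and 1. Of 12 Arf and Arl GTPases (22 listed) 3, 4, 4, and 3 rose and only Arf2 fell, at 24 hr. Of 8 exocyst subunits (9 listed), which tether vesicles to the plasma membrane, 2, 1, 2, and 2 rose and 0, 1, 1, and 1 fell.

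The largest changes in the Rab cycle list were those of Mical1, Tbc1d8, and Madd. Mical1, an actin-oxidizing Rab effector, had intensities of 249 and 239 at 0 hr, 199.8 and 311 at 2 hr, 122 and 174 at 4 hr, 63.0 and 56.9 at 12 hr, and 92.5 and 83.4 at 24 hr. It fell by 2.03 and 1.47 at 12 and 24 hr (standard error 0.22, adjusted p = 0.00045 and 0.0019), and all late arrays lay below the others. Mical1 was also called lower at 4 hr (−0.74). That call was lost without either 0 hr array, 4 hr replicate 1, or any 1 late array. Tbc1d8, a protein with the TBC domain of Rab GTPase-activating proteins, fell by 0.48, 1.42, 1.03, and 1.03 at the 4 times (standard error 0.13), but the mean of its probe sets was −0.21 (not called), −0.59, −0.32, and −0.32. Madd, the exchange factor of Rab3 and Rab27, had intensities of 128 and 120.1 at 0 hr, 79.9 and 64.7 at 2 hr, 117 and 58.0 at 4 hr, 304 and 288 at 12 hr, and 268 and 339 at 24 hr. Its early arrays lay below and its late arrays above those of 0 hr, the order also seen for Rab3a. Madd rose at 12 and 24 hr, by 1.28 at the latter (standard error 0.28, adjusted p = 0.014 and 0.012), and its early values of −0.78 and −0.59 were not called. Both calls were lost without either 0 hr array, that at 12 hr also without either 12 hr array and that at 24 hr without 24 hr replicate 2 (adjusted p up to 0.089). Rabggta, a subunit of the enzyme that attaches the lipid anchor to Rab proteins and named here after its values were seen, rose by 1.03, 1.10, and 0.58 at 4, 12, and 24 hr.

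**Figure D5:**
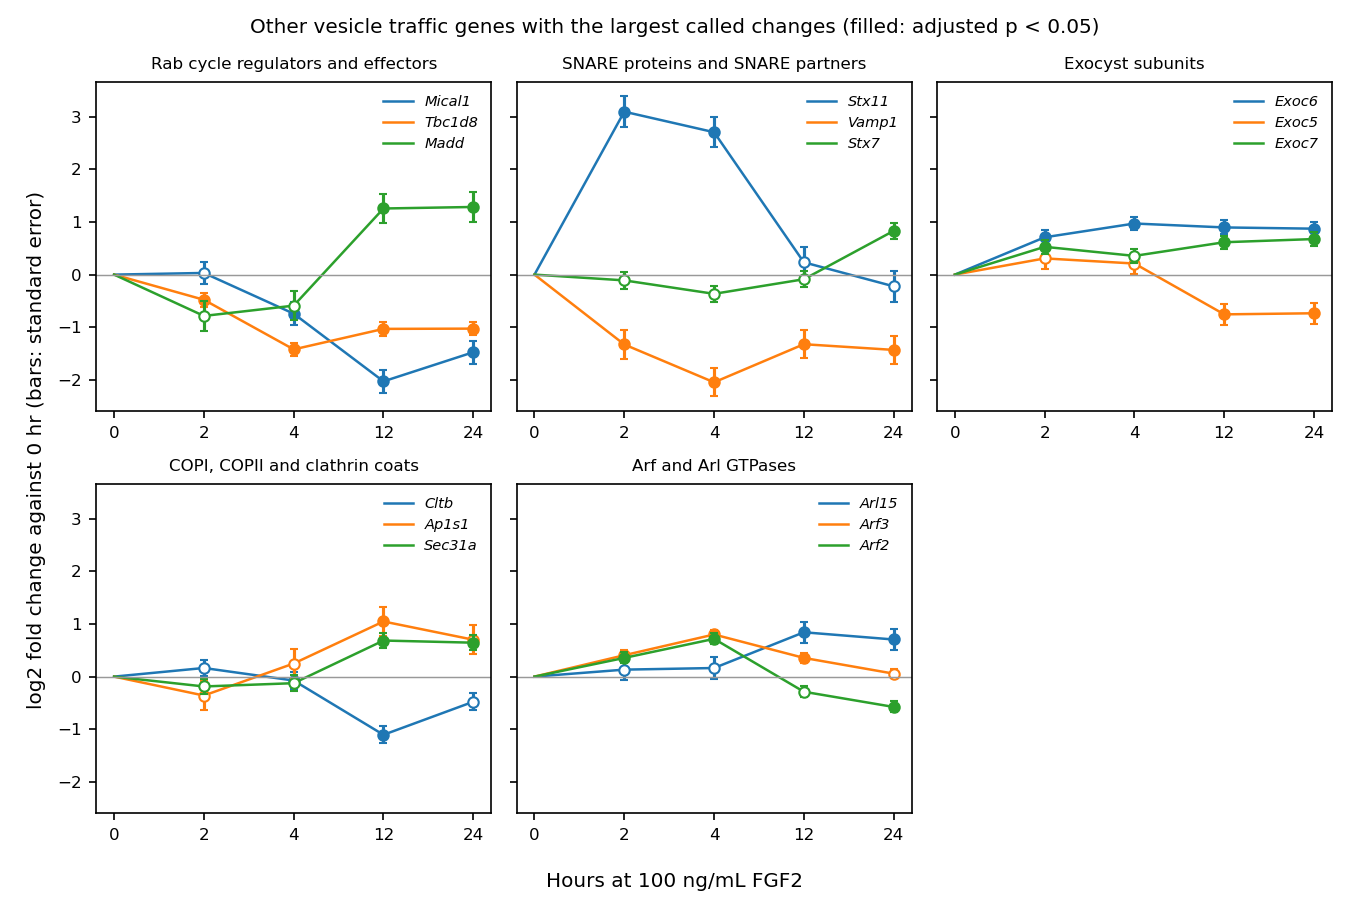
Log2 fold change against 0 hr with its standard error (bars) of the 3 genes with the largest called changes in each of 5 other lists of vesicle traffic genes, at 2 to 24 hr of 100 ng/mL FGF2 with the times equally spaced and filled points for an adjusted p under 0.05. Stx11 stands at 3.09 and 2.70 at 2 and 4 hr, and Mical1 at −2.03 at 12 hr.

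Among the SNAREs Stx11, a syntaxin of granule release in immune cells, had intensities of 92.5 and 95.1 at 0 hr, 634 and 1010.1 at 2 hr, 562 and 664 at 4 hr, 106 and 115 at 12 hr, and 58.8 and 110.1 at 24 hr. The early arrays were far above all others. It rose by 3.09 and 2.70 at 2 and 4 hr (standard error 0.29, adjusted p = 0.00036 and 0.00035) and was not called later (0.23 and −0.22). Vamp1, a SNARE of synaptic vesicles, was down-regulated throughout, at −1.33, −2.04, −1.32, and −1.43 (standard error 0.27), and at −1.19, −0.66, and −0.74 from 4 hr on with the mean of its probe sets. Stx7, a late endosomal syntaxin, rose by 0.83 at 24 hr. Of the exocyst subunits Exoc6 rose at all 4 times (0.71, 0.97, 0.90, and 0.87), Exoc7 at 2, 12, and 24 hr (0.53, 0.61, and 0.68), and Exoc5 fell by 0.75 and 0.73 at 12 and 24 hr. In the coats the clathrin light chain Cltb fell by 1.10 at 12 hr (−0.52 with the mean of its probe sets), the clathrin adaptor subunit Ap1s1 rose by 1.05 at 12 hr, and the COPII subunit Sec31a rose by 0.68 and 0.64 at 12 and 24 hr (0.39 and 0.35 with that mean). Arf3 rose by 0.41, 0.80, and 0.36 at 2, 4, and 12 hr, but with the mean of its probe sets it stood at 0.038 at 2 hr, without a call, and 0.38 at 4 hr. Arl15 rose by 0.84 and 0.70 at 12 and 24 hr, and Arf2 rose early (0.36 and 0.72, or 0.16 without a call and 0.45 with the mean of its probe sets) and was lower at 24 hr (−0.58). The calls of Stx11 and Cltb held without any 1 array, as did those of Tbc1d8 and Exoc6 at 4, 12, and 24 hr, Mical1 at 12 and 24 hr, Rabggta at 4 and 12 hr, Vamp1 and Arf3 at 4 hr, and Arf2 at 4 and 24 hr, and each of the other calls given for these lists was lost without 1 or both of the 0 hr arrays (adjusted p up to 0.20). Under the methods' analysis of variance the calls of Tbc1d8 at 2 hr, Mical1 at 4 hr, Vamp1 and Stx7 at 24 hr, and Sec31a at both times were lost.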

How the data were processed

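Rat lens explants were profiled on 10 Affymetrix arrays, 2 for each of 5 time points, and samples were grouped by the time in their titles. The intensity values were deposited on a linear scale after the authors normalized the arrays by RMA, which corrects background, adjusts the arrays to a common distribution, and summarizes probes, and its version is not given in the sources used here. Because RMA equalizes the distributions, a change shared by most transcripts would not be seen. Values were taken to log2, 57 array controls were set apart, and 31042 probe sets were tested, of which 20826 had 1 gene symbol, 436 several, and 9780 none. All 65 symbols were kept by RefSeq under the same gene ID.

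In R 4.3.3 limma 3.58.1 fitted 1 mean per time point over all arrays (lmFit, eBayes; 5 residual and 3.69 prior degrees of freedom, prior SD 0.116), with p-values adjusted over all probe sets by the method of Benjamini and Hochberg and calls at 0.05. Early is the mean of 2 and 4 hr and late that of 12 and 24 hr. The number of arrays limits the precision, and replicate arrays differed on the log2 scale with an SD of 0.161, 0.288, 0.300, 0.170, and 0.213 at 0, 2, 4, 12, and 24 hr. The members, lists, roles, and markers were chosen with earlier results of these data known. Array values are given for members called with a log2 fold change of at least 1 either way, for the 3 largest called rises and falls at each time, and for some others chosen after their values were seen. In each other list the 3 genes with the largest called changes are named. Promoter windows came from RefSeq (GRCr8), and were searched for the letters given and for TGACGTCA, CACGTG, and CCGGAAG (1.83, 6.42, and 8.75% of all windows, against 3.92, 7.84, and 7.84% of the members' genes). Plots used matplotlib 3.10.9 in Python 3.11.15. Alternatives were median centring, quantile normalization, a filter on the dimmest 1 in 3 probe sets, a fit of the groups of a contrast alone, a trended and robust prior, a fold change of at least 1.25, unadjusted p, the methods' analysis of variance, a replicate block, each array left out in turn, the mean of all probe sets of a gene, array quality weights, and, chosen after seeing the data, fits without the 2 and 4 hr or the 12 and 24 hr arrays. Scripts were tested on simulated data.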

Additional observations from a re-analysis of the deposited data

Results flagged for a closer look

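Rab3a and Rab11fip1 were called in opposite directions at different times. The contrast of the late with the early phase is built from the same group means, so its values describe these genes and are no independent support. Rab3a was lower at 2 and 4 hr and higher at 12 and 24 hr than at 0 hr, and the 2 phases differed by 1.945 on the log2 scale, late minus early (standard error 0.13, adjusted p = 1.4e-05 in limma), and all 4 late arrays lay above all 4 early arrays. Rab11fip1 was higher at 2 and 4 hr and lower at 24 hr, with a difference of −1.151 (standard error 0.12, adjusted p = 0.00013), and its 4 late arrays lay below its 4 early arrays. The array numbering differs between the phases and cannot be told apart from the time in these differences.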

How the results depend on the processing

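Of 1923 values of named genes under the alternatives, 1682 kept direction and call, 240 kept direction without the call, and 1 turned: Rab6a at 24 hr with the mean of its probe sets, at −0.011. Fitting the groups of each contrast alone gave 7 Rab genes at 2 hr (against 13), 19 at 12 hr (against 9), 18 at 24 hr (against 11), and 0 from 2 to 4 hr (against 4), where 16 passed an unadjusted p and 8 the methods' analysis of variance. Unadjusted p gave 24, 32, 20, and 22 at 2, 4, 12, and 24 hr and 17 from 12 to 24 hr. The analysis of variance gave 21, 27, and 17 at 12 hr, 24 hr, and from 12 to 24 hr, and array weights 21, 21, and 9, with 1 from 2 to 4 hr. The trended prior gave 7 from 12 to 24 hr, and the mean of all probe sets 2 from 2 to 4 hr. Chosen after seeing the data, the fit without the 12 and 24 hr arrays gave 6 at 2 hr and 1 from 2 to 4 hr, and the fit without the 2 and 4 hr arrays 17, 20, and 10 at 12 hr, 24 hr, and from 12 to 24 hr. Apart from single arrays and the replicate block, both given below, no other alternative moved a count by over 1.5 times, and the cause was not tested.

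Leaving out 1 array gave 3 to 13 at 2 hr, 8 to 21 at 4 hr, 4 to 12 at 12 hr, 3 to 16 at 24 hr, 1 to 4 for each step, and 19 to 30 between the phases. With 1 array left, a time is assumed to vary like the others. Arrays of equal replicate number shared deviations between 2 and 4 hr (r = 0.33), and r was from −0.15 to −0.0030 for the other pairs of times. The main fit treats all arrays as independent, also in the step from 2 to 4 hr and in the early mean. A replicate block gave 10, 19, 9, and 10 at the 4 times, 2 and 3 for the steps, and 26 between the phases. Of 88 results of named genes, 38 and 39 lost the call without 0 hr replicate 1 and 2, 25 without either 12 hr array, and 3 to 14 without any other array.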

Other observations

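Second probe sets of some members gave calls where the one used had none, and no value here shows which of them reads the transcript better. Rab11b rose at 12 and 24 hr at its dimmer probe set, by 0.87 and 0.66 (adjusted p = 0.00072 and 0.0028 in limma), and had no call at the brighter one. Rab11a rose by 0.60 at 24 hr at its dimmer probe set alone (adjusted p = 0.0039), and Rab5a fell by 1.02 at 24 hr at its dimmer probe set (adjusted p = 0.0020), against −0.23 at the brighter one. Rab3ip, which helps recruit Rab8 to the growing cilium, rose at 2 and 4 hr at its dimmer probe set, by 0.44 and 0.47. Rab8b fell by 0.89 and 0.72 at 2 and 4 hr at its second probe set and had no call at its dimmest (0.06 and 0.26). Rab22a rose by 0.69 at 4 hr at its second probe set (adjusted p = 0.0016), where the brightest stood at 0.43 without a call.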
